A study of Mus musculus with 8 samples.

Results

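Type I interferon-stimulated genes are the genes that a cell switches on when interferon reaches it. Here they are 40 mouse genes, chosen by symbol as interferon-induced effectors and STAT and IRF factors, out of 27179 gene rows in the table. All 40 were present, and 39 had enough reads to be tested. They were compared in MLL-AF9 leukaemia cells, an acute myeloid leukaemia model driven by a fusion of the MLL and AF9 genes. The cells carried ubiquitin-driven green fluorescent protein (GFP) and β-actin-driven luciferase, came from 1 terminally ill mouse and were grown in culture before transfer. The samples are labelled WT, and the recipients were male, 8 to 10 weeks old and not preconditioned, with the cells injected by vein. Every mouse in both groups was given 5+3 chemotherapy, which was cytarabine daily for 5 days at 100 mg/kg, joined on the first 3 by doxorubicin at 3 mg/kg. One group of 5 libraries came from mice on the standard amino acid diet (AA) and one of 3 libraries from mice on the diet free of branched-chain amino acids (BCAA), which are leucine, isoleucine and valine. Living GFP-positive marrow cells were sorted at the time of greatest response to chemotherapy, so both groups are residual leukaemia after treatment. No library from an untreated mouse was analysed here.

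Interferon alpha and beta bind the receptor chains IFNAR1 and IFNAR2, and the kinases JAK1 and TYK2 then phosphorylate STAT factors, among them STAT2. These join IRF9 in a complex that binds the interferon-stimulated response element in the promoters of its target genes. The products block viral RNA, tag proteins with the ubiquitin-like modifier ISG15, and restrain or amplify the signal. In blood-forming tissue many of these genes are also expressed at a low level without infection, and chemotherapy that damages DNA is known to induce some of them.

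Promoters of Ifit1, of the genes with the lowest log2 fold changes that have an entry, and of both pairs of close copies are shown first, because the response element can be looked for in them directly. Each is the stretch that ends 1 base before the RefSeq start site in GRCm38.p6, written 5′ to 3′ on the gene's strand. Capitals mark every match to the core of the element, which is GAAA, any 2 bases and GAAA again, or to its reverse complement, which is TTTC, any 2 bases and TTTC. Overlapping matches run together.
Ifit1, chr19:34640769-34640888, plus strand: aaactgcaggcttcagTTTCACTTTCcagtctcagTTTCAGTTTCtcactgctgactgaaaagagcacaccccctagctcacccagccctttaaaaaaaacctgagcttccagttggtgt
Isg15, chr4:156200819-156200938, minus strand: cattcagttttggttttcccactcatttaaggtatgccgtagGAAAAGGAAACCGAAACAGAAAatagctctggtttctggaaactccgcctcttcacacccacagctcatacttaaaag
Oasl2, chr5:114896814-114896933, plus strand: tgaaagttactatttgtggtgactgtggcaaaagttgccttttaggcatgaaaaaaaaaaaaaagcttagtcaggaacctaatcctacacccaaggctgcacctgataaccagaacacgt
Rsad2, chr12:26456453-26456572, minus strand: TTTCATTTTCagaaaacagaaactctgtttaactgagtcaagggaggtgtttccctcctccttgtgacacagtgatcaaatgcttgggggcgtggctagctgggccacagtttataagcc
Oas1a, chr5:120907526-120907645, minus strand: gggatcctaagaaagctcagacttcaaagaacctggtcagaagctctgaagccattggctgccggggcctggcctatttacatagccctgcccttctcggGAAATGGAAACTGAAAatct
Oas1g, chr5:120887614-120887733, minus strand: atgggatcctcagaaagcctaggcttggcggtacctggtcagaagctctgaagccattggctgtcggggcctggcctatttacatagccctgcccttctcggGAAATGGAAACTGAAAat
Ifit3, chr19:34583329-34583528, plus strand: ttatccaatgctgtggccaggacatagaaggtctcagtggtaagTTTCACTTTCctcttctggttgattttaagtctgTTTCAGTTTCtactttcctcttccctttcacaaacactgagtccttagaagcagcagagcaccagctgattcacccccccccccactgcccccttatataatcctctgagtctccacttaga
Ifit3b, chr19:34607757-34607956, plus strand: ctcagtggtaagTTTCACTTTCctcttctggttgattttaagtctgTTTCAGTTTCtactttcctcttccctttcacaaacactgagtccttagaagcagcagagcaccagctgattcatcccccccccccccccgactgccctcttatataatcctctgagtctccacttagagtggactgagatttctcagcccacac
Ifit1 has 2 matches, which begin 104 and 85 bases before its start, and Isg15 has 3 overlapping ones that begin 78, 72 and 66 bases before it. The Rsad2 match begins 120 bases before the start, and the stretch shown for Oasl2 has none. Ifit3 and Ifit3b hold 2 matches each, and in a local alignment of their 250 upstream bases 217 of 224 columns are identical (96.9%). For Oas1a and Oas1g 212 of 253 columns are identical (83.8%). RefSeq promoter windows of 300 bases, from 250 before the start to 50 after it, were found for 30 of the 40 genes. Of these 30 genes, 14 (46.7%) held the motif on either strand, against 3.99% of 27025 genes with a window. It was found in 4 of the 11 genes with an unadjusted p under 0.05 for diet and in 10 of the 18 others tested. The shorter gamma-activated core TTCNNNGAA, which reads the same on both strands, was in 6 of the 30 genes (20.0%) and in 9.55% of all. A match is only a match of letters, and binding was not measured.

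The question was how these genes differed with diet in leukaemia cells that remained after chemotherapy. One of them changed by the test: Ifit1, whose product binds viral RNA lacking host cap methylation, fell 4.62-fold. Another 12, among them Isg15, Zbp1, Xaf1, Herc6 and Dtx3l, were lower at an unadjusted p under 0.05 and did not pass after adjustment over all genes. Of the 39 tested, 31 had a negative log2 fold change, where 47.4% of all 13364 tested genes did. The factor Stat2 and the effectors Trim25, Oas1a, Oas2 and Ifi35 had log2 fold changes between -0.17 and 0.02. Ifi203, Ifi204 and Ifit3b had higher means on the BCAA-free diet, with intervals that include 0.

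In numbers, 1 of 39 was called lower by edgeR's quasi-likelihood test (adjusted p under 0.05), where the test called 0.539% of all genes lower. None was called higher, where it called 0.217% of all genes. DESeq2 called 7 lower, against 2.06% of all genes, and limma-voom called 2, against 0.367%. Neither called any higher, where they called 0.990% and 0.112% of all genes. With no filter on low counts edgeR called 5 lower, against 0.858% of all genes, and none higher, against 0.352%. At an unadjusted p under 0.05, 13 were lower, against 7.26% of all genes, and 0 were higher, against 6.21%. In 10 of 39 every BCAA-free library was below every standard-diet library, against 4.68% of all genes, and in none was it the reverse, against 4.17%. The median log2 fold change was -0.29, and over all tested genes it was 0.02. When BCAA-free replicate 3 was left out it was -0.19, and when replicate 2 was left out it was -0.46, so its size rests in part on single libraries. The labels call the libraries biological replicates. The members were chosen as related, interferon-induced genes, and their values are not independent of each other.

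**Figure D1:**
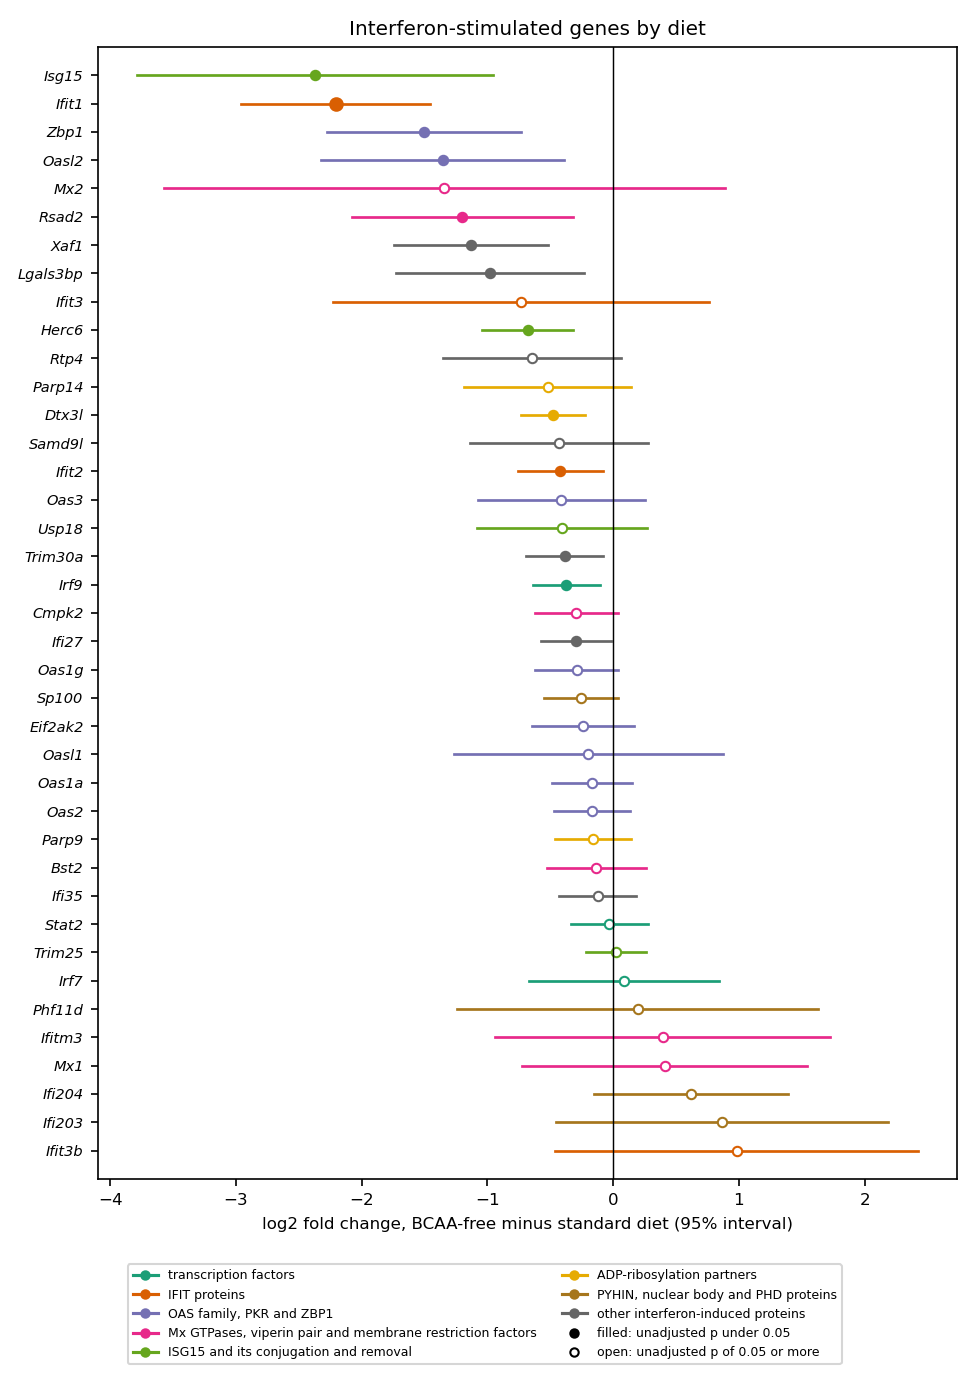
Log2 fold change of each of the 39 tested interferon-stimulated genes, BCAA-free minus standard diet, with its 95% interval from edgeR, coloured by role. Filled points have an unadjusted p under 0.05, and the larger point is Ifit1, the 1 gene that passed after adjustment.

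Among the IFIT genes, which lie together on chromosome 19 between 34550550 and 34650009, the 4 members differed in level, and 1 of them was called. Ifit1 (gene 15957, chromosome 19 from 34640889 to 34650009) was at 5.98, 5.73, 8.295, 11.5 and 9.25 CPM (counts scaled to library size, with TMM factors) in standard-diet replicates 1 to 5. It was at 2.55, 1.68 and 1.145 CPM in BCAA-free replicates 1 to 3. The highest BCAA-free library was thus below the lowest of the standard diet, and the raw counts behind these values were 101 to 235 and 31 to 38 per library. The means were 8.14 ± 2.38 (SD, n = 5) and 1.79 ± 0.708 CPM (SD, n = 3), with a log2 fold change of -2.21 (SE 0.36, 95% interval -2.96 to -1.45, edgeR adjusted p = 0.00747). The call was made in all 8 fits that each leave out 1 library (adjusted p = 0.00993 to 0.0405). Ifit2, a related RNA-binding protein, was at 42.4, 55.2, 34.7, 43.4 and 35.1 CPM on the standard diet and at 32.3, 33.1 and 29.2 CPM on the BCAA-free diet. Its groups did not overlap but lay close, with a log2 fold change of -0.42 (SE 0.16, edgeR adjusted p = 0.268).

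Ifit3 and its close copy Ifit3b were near the limit of counting. Ifit3 was at 1.78, 1.19, 1.27, 2.70 and 0.665 CPM on the standard diet and at 1.95, 0.596 and 0.286 CPM on the BCAA-free diet. Ifit3b was at 0.382, 0.340, 0.794, 0.840 and 0.907 CPM and at 1.21, 2.17 and 0.509 CPM. The groups overlapped for both, with log2 fold changes of -0.73 (95% interval -2.23 to 0.77) and 0.98 (-0.46 to 2.42). Of all stretches of 38 bases, the read length, in Ifit3 transcripts, 57.3% also occur in transcripts of another gene, and 51.1% in the case of Ifit3b. The split of reads between the pair is uncertain. For Ifit1 that share was 8.90%, and Ifit1bl2 was the gene that shared the largest number of them. The genomic span of Ifit1 also overlaps that of Ifit1bl1. Of the 40 genes 13 overlap another gene, and in 20 the share was over 5%, among them Isg15 (8.90%) and Herc6 (13.3%). What this did to the counts was not tested.

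**Figure D2:**
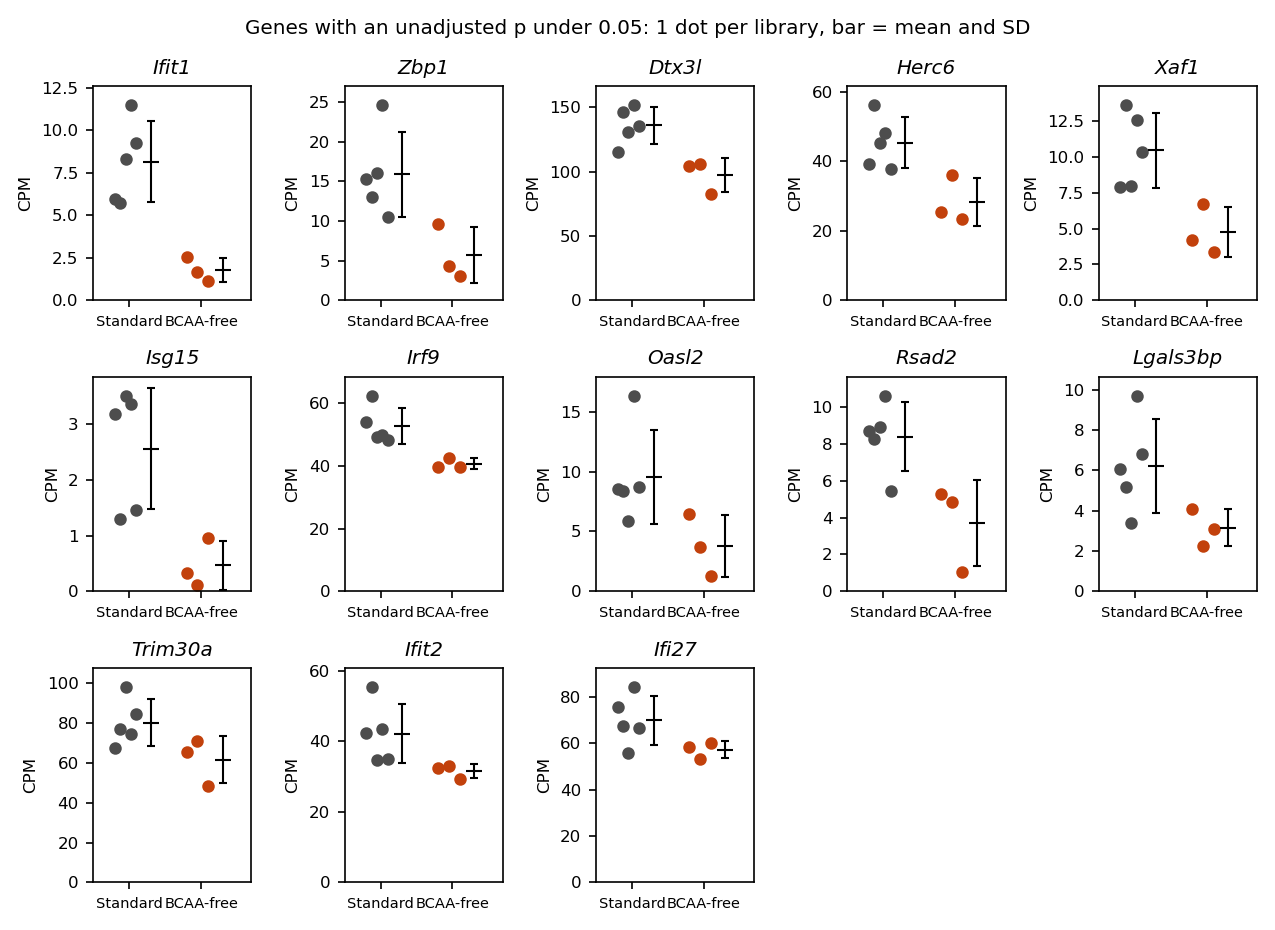
CPM in each library for the 13 genes with an unadjusted p under 0.05, with standard-diet libraries in grey, BCAA-free libraries in orange, and the mean and SD beside each group on axes that start at 0. The BCAA-free libraries of Ifit1 reach up to 2.55 CPM and its standard-diet libraries start at 5.73 CPM, while the groups of Oasl2, Lgals3bp, Trim30a and Ifi27 overlap.

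ISG15 is attached to other proteins by a ubiquitin-like cascade in which HERC6 is the mouse ligase, and USP18 removes it and also dampens the receptor. Isg15 (gene 100038882, chromosome 4 from 156199424 to 156200818) was at 3.18, 1.31, 3.49, 3.36 and 1.45 CPM on the standard diet. It was at 0.335, 0.108 and 0.954 CPM on the BCAA-free diet, where the counts were 5, 2 and 30. Its log2 fold change of -2.37 (SE 0.67, 95% interval -3.79 to -0.96) was the lowest of all 39, and it did not pass (edgeR adjusted p = 0.118), but DESeq2 called it (adjusted p = 0.0108). Herc6 was at 39.2, 56.0, 45.2, 48.2 and 37.8 CPM on the standard diet and at 25.4, 36.1 and 23.4 CPM on the BCAA-free diet. The groups did not overlap, and the fold change was 1.60 towards lower values (log2 fold change -0.68, SE 0.17, edgeR adjusted p = 0.0808, DESeq2 adjusted p = 0.0109). Usp18 was at 3.81 ± 0.402 CPM on the standard diet (SD, n = 5) and 2.87 ± 0.300 on the BCAA-free diet (SD, n = 3), without overlap and with a log2 fold change of -0.41 (95% interval -1.08 to 0.27). Trim25, a ubiquitin ligase that activates the RNA sensor RIG-I and is itself tagged by ISG15, was at 111 ± 7.56 and 113 ± 16.6 CPM, with an interval of -0.21 to 0.26 for the log2 fold change.

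Oligoadenylate synthetases sense double-stranded RNA and activate RNase L, and protein kinase R (Eif2ak2) responds to the same ligand by stopping translation. All 8 genes of this group, which includes the Z-nucleic acid sensor Zbp1, had a negative log2 fold change, from -1.50 to -0.17, and none was called by edgeR. Zbp1 and Oasl2 had an unadjusted p under 0.05, and both were called by DESeq2. Zbp1 (chromosome 2 from 173206612 to 173218959) was at 15.3, 13.0, 16.04, 24.5 and 10.5 CPM on the standard diet and at 9.66, 4.39 and 3.02 CPM on the BCAA-free diet. Its groups did not overlap, by a narrow gap between the lowest standard-diet and the highest BCAA-free library. The log2 fold change was -1.50 (SE 0.36), with an edgeR adjusted p of 0.0759, and it was called by DESeq2 (adjusted p = 0.00107), by limma-voom (0.0449) and by edgeR without BCAA-free replicate 1 (0.0195), where 0.278% of all genes were called lower and 0.102% higher. Oasl2, which encodes an OAS-like protein, was at 8.51, 8.34, 5.84, 16.3 and 8.71 CPM and at 6.44, 3.68 and 1.27 CPM (log2 fold change -1.35, SE 0.45, edgeR adjusted p = 0.207, DESeq2 adjusted p = 0.0385). BCAA-free replicate 1 lay within the standard-diet range there.

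Oas1a and Oas1g lie together on chromosome 5. Oas1a was at 43.7, 28.7, 37.1, 34.7 and 30.1 CPM on the standard diet and at 30.5, 31.5 and 31.2 CPM on the BCAA-free diet. Oas1g was at 38.7, 27.8, 36.0, 38.0 and 35.6 CPM and at 26.4, 35.0 and 25.0 CPM. Both pairs of groups overlapped, and the 95% intervals of the log2 fold changes were -0.49 to 0.15 and -0.62 to 0.04. Of the 38-base stretches of Oas1a transcripts 64.4% also occur in another gene, and 51.5% of those of Oas1g, and in each case the gene that shared the largest number was the other one of the pair. Oas2, Oas3 and Oasl1 had log2 fold changes of -0.17, -0.41 and -0.20, and Eif2ak2 of -0.24. Eif2ak2 was between 125 and 150 CPM in all standard-diet libraries, at 145 and 130 in BCAA-free replicates 1 and 2 and at 68.0 in replicate 3.

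The Mx proteins are GTPases that trap viral particles, viperin (Rsad2) and the neighbouring gene Cmpk2 make and supply a chain-terminating nucleotide, and IFITM3 and tetherin (Bst2) act at membranes. Rsad2 was at 8.68, 8.28, 8.93, 10.6 and 5.44 CPM on the standard diet and at 5.30, 4.82 and 1.05 CPM on the BCAA-free diet. Its groups were separated only by the gap between standard-diet replicate 5 and BCAA-free replicate 1, and the log2 fold change of -1.20 (SE 0.41) did not pass (edgeR adjusted p = 0.216). Cmpk2, which lies beside it on chromosome 12, was at 45.5 ± 4.81 CPM (SD, n = 5) and 37.1 ± 8.88 CPM (SD, n = 3), with overlap. Mx1 was at 1.61 ± 0.814 and 2.14 ± 1.20 CPM and Mx2 under 1 CPM in every library, and no read of it was counted in BCAA-free replicate 1 or standard-diet replicate 4. Ifitm3 varied from 1.82 to 18.1 CPM within the standard diet and from 7.25 to 17.3 CPM within the BCAA-free diet. Bst2 was at 23.9 ± 4.74 and 21.7 ± 4.18 CPM.

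PARP9 and DTX3L form a complex that joins ADP-ribose and ubiquitin, and PARP14 is an ADP-ribosyltransferase encoded next to them on chromosome 16. Dtx3l was at 115, 147, 131, 152 and 136 CPM on the standard diet and at 104, 106 and 82.4 CPM on the BCAA-free diet. The groups did not overlap (log2 fold change -0.48, SE 0.12, edgeR adjusted p = 0.0774, DESeq2 adjusted p = 0.0141). Parp9 was at 62.6 ± 6.86 and 55.9 ± 11.9 CPM, with a log2 fold change of -0.16, and Parp14 at 79.1 ± 10.9 and 55.4 ± 26.2 CPM, with a log2 fold change of -0.52. Dtx3l and Parp9 overlap in the genome and share 38-base stretches (8.84% and 8.24% of theirs occur in another gene), so some of their reads could be counted for either.

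Of the factors, IRF9 is the DNA-binding part of the complex, STAT2 its activator, and IRF7 an induced factor that amplifies interferon production. Irf9 was at 53.9, 62.2, 49.3, 49.8 and 48.3 CPM on the standard diet and at 39.8, 42.7 and 39.6 CPM on the BCAA-free diet. It was lower in all 3 BCAA-free libraries, by 1.295-fold (log2 fold change -0.37, SE 0.13, edgeR adjusted p = 0.201). Stat2 was at 74.6, 90.2, 61.04, 59.2 and 65.9 CPM and at 57.7, 70.2 and 78.1 CPM, with overlap and an interval of -0.34 to 0.28 for the log2 fold change. Irf7 was at 11.0, 8.23, 14.01, 11.3 and 8.10 CPM and at 12.3, 17.4 and 4.10 CPM, so that the BCAA-free libraries held both the highest and the lowest value. Its interval ran from -0.67 to 0.85. Changes of up to these bounds could not be told from none here.

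The PYHIN proteins bind DNA and are encoded in a cluster on chromosome 1. Ifi203 was at 4.58 to 13.4 CPM on the standard diet and at 10.3, 32.9 and 4.90 CPM on the BCAA-free diet. Ifi204 was at 2.78 to 3.69 CPM on the standard diet and at 6.44, 5.85 and 2.13 CPM on the BCAA-free diet. In both genes replicate 3 was the lowest of the 3 BCAA-free libraries, and in neither did the difference pass (log2 fold changes 0.87 and 0.62, edgeR adjusted p = 0.560 and 0.485). Of their 38-base stretches 18.03% and 27.8% occur in another gene. Sp100, a nuclear body protein, was at 219.8 ± 34.98 and 184 ± 33.8 CPM, and Phf11d at about 1 CPM.

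All 7 tested genes of the remaining group had a negative log2 fold change. Xaf1, a proapoptotic antagonist of the inhibitor XIAP, was at 7.87, 13.6, 7.94, 12.5 and 10.3 CPM on the standard diet and at 4.22, 6.72 and 3.37 CPM on the BCAA-free diet. Its groups did not overlap (log2 fold change -1.13, SE 0.29, edgeR adjusted p = 0.0841, DESeq2 adjusted p = 0.00963). Lgals3bp, a secreted glycoprotein that binds galectin 3, was at 6.09, 5.16, 3.37, 9.66 and 6.83 CPM and at 4.09, 2.27 and 3.12 CPM (log2 fold change -0.98, edgeR adjusted p = 0.243). Trim30a, a tripartite-motif protein that restrains Toll-like receptor signalling, was at 67.3, 76.8, 97.7, 74.3 and 84.6 CPM and at 65.5, 70.6 and 48.1 CPM (log2 fold change -0.39, edgeR adjusted p = 0.265). Ifi27, a mitochondrial protein, was at 75.6, 67.6, 55.9, 84.1 and 66.8 CPM and at 58.2, 53.1 and 60.2 CPM (log2 fold change -0.29, edgeR adjusted p = 0.345). The last 3 genes overlapped between groups. Rtp4, Samd9l and Ifi35 had log2 fold changes of -0.64, -0.43 and -0.12, and Ifi44 was not tested, with counts of 1, 4, 12, 5 and 15 on the standard diet and 8, 14 and 3 on the BCAA-free diet.

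The genes differed widely in abundance. Per kilobase of exon (CPM divided by the exon length of the gene), Ifi27 was highest on the standard diet at 68.3, followed by Sp100 at 57.8, Samd9l at 36.3, Eif2ak2 at 31.2 and Bst2 at 30.1. Ifit1 was at 3.07 and Isg15 at 3.38 on that scale, and the lowest were Phf11d at 0.283 and Mx2 at 0.247. The 2 genes with the lowest log2 fold changes, Isg15 and Ifit1, thus lay in the lower part of the range of levels.

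**Figure D3:**
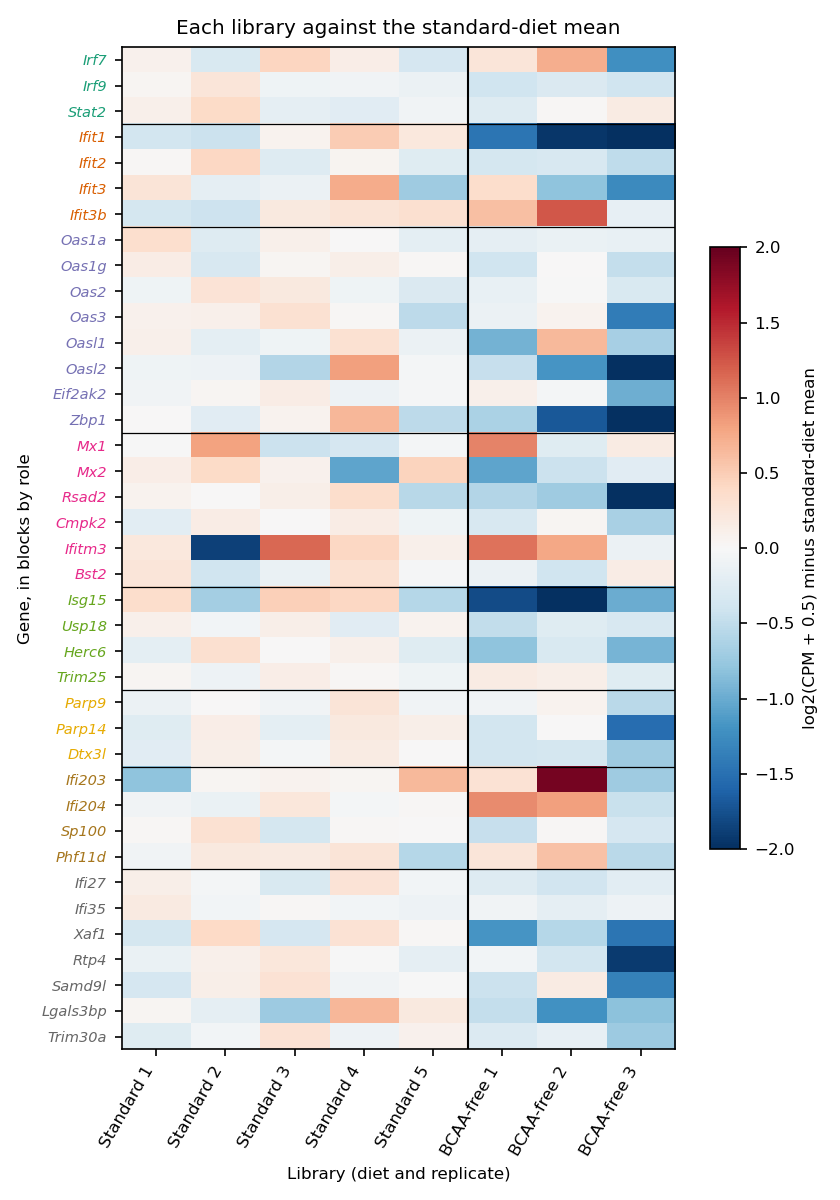
Each library's log2(CPM + 0.5) minus the mean of the 5 standard-diet libraries for the 39 tested genes, in blocks by role, with blue for lower and red for higher and the scale limited to 2 in either direction. BCAA-free replicate 3 has the most blue cells, and Ifit1, Isg15, Zbp1 and Xaf1 are blue in all 3 BCAA-free libraries.

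The 3 BCAA-free libraries were not alike. Replicate 3 was the lowest of the 3 in 27 of 39 genes (69.2%), against 34.2% of all tested genes. Replicates 1 and 2 were the lowest in 6 each (15.4%), against 33.3% and 32.5% of all tested genes. Replicate 3 was below every standard-diet library in 28 of 39 (71.8%, against 22.7% of all genes), replicate 1 in 18 (46.2%, against 20.3%) and replicate 2 in 17 (43.6%, against 21.1%). In 7 of 39 genes (17.95%, against 10.09% of all genes) only replicate 3 was below the standard-diet range: Irf7, Oas2, Oas3, Eif2ak2, Trim25, Parp9 and Ifi204. The median deviation from the standard-diet mean, on the log2(CPM + 0.5) scale, was -0.28 in BCAA-free replicate 1, -0.17 in replicate 2 and -0.64 in replicate 3. In the standard-diet libraries it was between -0.05 and 0.12, and over all genes it was between -0.01 and 0.04 in every library. Without replicate 3, Ifit1 and Isg15 were called (edgeR adjusted p for Isg15 = 0.0420), against 0.406% of all genes called lower and 0.566% called higher, and 10 genes had groups that did not overlap, against 8.28% of all genes.

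**Figure D4:**
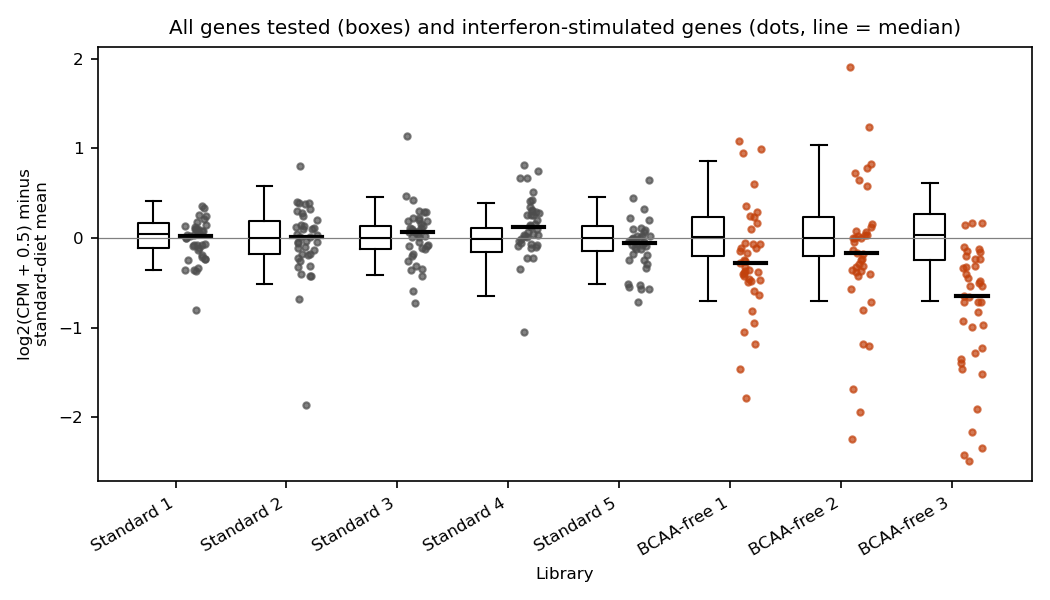
Log2(CPM + 0.5) minus the standard-diet mean in each library, for all tested genes (boxes with the median, quartiles and whiskers from the 5th to the 95th percentile) and for the 39 interferon-stimulated genes (dots, with a line at the median). The standard-diet libraries are centred on their own mean by construction, and the dots of all 3 BCAA-free libraries have medians below 0, lowest in replicate 3.

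Upstream of these genes, transcripts of the ligands were at the limit of detection. Of 17 type I interferon genes 16 had no count in any library, and Ifnk had 16 counts in all. A count of 0 allows up to 3 counts, or 0.0770 to 0.202 CPM depending on the library, and interferon from other cells of the marrow would not be seen in sorted leukaemia cells. The receptor chains were present in both groups. Ifnar1 was at 100.3 ± 9.56 CPM (SD, n = 5) and 116 ± 7.12 CPM (SD, n = 3), with an interval of -0.01 to 0.43 for the log2 fold change, and Ifnar2 at 121 ± 8.27 and 119 ± 8.11 CPM, with an interval of -0.23 to 0.19. Of 7 receptor and JAK-STAT genes tested, edgeR called none, and 1 was lower at an unadjusted p under 0.05, against 7.26% of all genes. That gene was Ifngr1, a chain of the interferon gamma receptor (log2 fold change -0.31, edgeR adjusted p = 0.257). The median log2 fold change of the 7 was -0.02.

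None of 7 inhibitors of the pathway and none of 15 kinases, adaptors and factors that induce interferon was called by edgeR. At an unadjusted p under 0.05, 1 inhibitor was lower and 1 of the 15 was higher. Over all genes 7.26% were lower and 6.21% higher at that threshold. The median log2 fold change was 0.08 for the inhibitors and 0.22 for the 15, of which 12 were positive. Of 44 other interferon-induced genes tested, 2 were called lower (Ifih1 and Dhx58, both RNA sensors of the RIG-I family) and none higher, with a median of -0.10. Of 13 genes of the interferon-gamma programme, 1 was called lower (Gbp3, a guanylate-binding protein) and none higher, with a median of -0.66. Of all genes 0.539% were called lower and 0.217% higher. At an unadjusted p under 0.05, 7 of the 44 were lower and 5 higher, and 6 of the 13 were lower and 1 higher. All BCAA-free libraries were below all standard-diet ones in 3 of the 44 and 5 of the 13, against 4.68% of all genes. Without 1 library these 3 calls were kept in 3, 1 and 3 of 8 fits, for Ifih1, Dhx58 and Gbp3 in that order. No test compared these lists with one another.

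**Figure D5:**
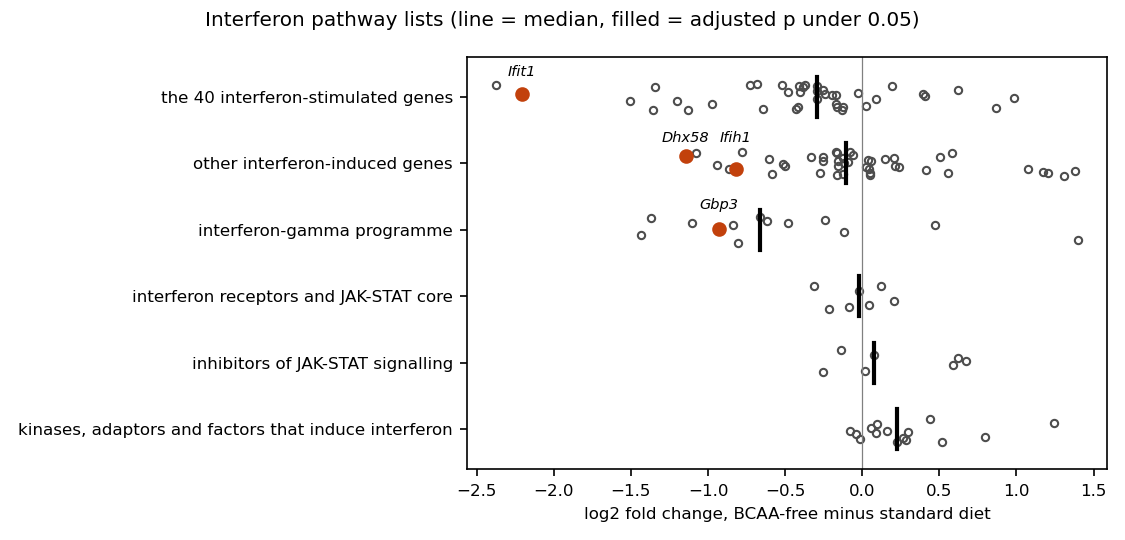
Log2 fold change, BCAA-free minus standard diet, of the tested genes in each list, 1 circle per gene, with a line at the median of the list. Filled circles are the 4 genes called by edgeR (Ifit1, Dhx58, Ifih1 and Gbp3), all of them below 0.

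Library totals ran from 14851240 to 38966911 counts. The label of myeloid leukaemia was matched by Hoxa9 at 140 to 200 CPM, and all 10 leukaemia and progenitor markers were detected. Markers of other cells were present too, and some moved with diet. The summed CPM of 6 T cell markers was 2.18 to 5.37 on the standard diet. It was 7.27, 31.3 and 4.45 in BCAA-free replicates 1 to 3. That of 5 B cell markers was 99.3 to 335.5 on the standard diet. The BCAA-free libraries lay within that range, at 148 to 285. Of 4 tested B cell markers 2 (Cd79a and Cd79b) were called higher by edgeR, against 0.217% of all genes. Cd79a was at 5.16, 17.7 and 2.29 CPM in BCAA-free replicates 1 to 3. The 6 plasmacytoid dendritic cell markers, from a cell that makes much interferon, summed to 5.62 to 7.10 on the standard diet. They summed to 9.70, 22.5 and 6.17 in BCAA-free replicates 1 to 3. The leukaemia and progenitor markers summed to 9088 to 11650 and 7476 to 8769, a sum made up largely of Mpo, which was at 8798 ± 1044 and 6236 ± 635 CPM and did not pass (edgeR adjusted p = 0.0605). Their median log2 fold change was -0.14, and Hoxa9 was at 175 ± 15.3 and 165 ± 24.6 CPM. Neutrophil markers summed to 715 to 5693 on the standard diet and to 2496, 5906 and 1470 in BCAA-free replicates 1 to 3. All 8 of them had a positive log2 fold change (median 0.48), as did all 6 T cell markers (median 2.07). The same held for all 4 tested B cell markers (2.23), 3 plasmacytoid dendritic cell markers (0.93) and 5 erythroid markers (1.46). The 5 natural killer cell markers summed to 1.68 to 7.29 and 1.58 to 7.715, and 3 of 4 tested were positive. Within the BCAA-free diet, replicate 2 was highest and replicate 3 lowest in the T cell, B cell, plasmacytoid dendritic cell, neutrophil and natural killer cell sums. The leukaemia and progenitor sum was highest in replicate 3. The median deviation of the interferon-stimulated genes was -0.17 in replicate 2 and -0.64 in replicate 3. The 9 marrow macrophage markers summed to 283 to 393 and 228 to 302, and the sum went against most of the list. Of the 9, 7 had a positive log2 fold change (median 0.91), 5 were higher and 2 lower at an unadjusted p under 0.05, and Cd163 was called higher. Adgre1, an abundant one, was at 115 ± 35.5 and 74.0 ± 18.3 CPM. The 6 erythroid markers summed to 3.51 to 11.97 and 4.68 to 44.5, with the maximum in BCAA-free replicate 3. The 5 stromal and endothelial markers summed to 2.59 to 9.46 and 15.2 to 44.1, with Cxcl12 called higher. Immediate early genes, which respond to handling, summed to 56.8 to 70.0 and 82.1 to 91.3. No marker of these lists was at 0 in all 8 libraries, and the part of other cells or of handling in the interferon-stimulated genes was not tested. Fewer cells of a kind and less RNA per cell cannot be told apart in these bulk libraries.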

How the data were processed

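RNA-seq of polyadenylated RNA, read as pairs of 38 bases, was measured in 8 libraries. The authors deposited raw counts per Entrez gene, without normalization. The submitters' processing notes name mm10, featureCounts and Cell Ranger, without versions or roles. Which aligner was used, whether strand was used in counting and how multimapping reads were handled is not stated in the labels.

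Groups came from the sample titles. Of 27179 identifiers, 25275 matched the RefSeq table of GRCm38.p6. The rest stayed in the tests and held 1.71% to 4.43% of a library's counts. The main test was edgeR 4.0.16 (R 4.3.3): quasi-likelihood F test, robust, TMM factors, a design with diet alone, Benjamini-Hochberg over 13364 genes, threshold 0.05. Its default filter on low counts kept genes with at least 15 counts in total. Genes also had to reach, in at least 3 libraries, the CPM that equals 10 counts at the median library size. Standard errors were derived from the log2 fold change and its F statistic. Alternatives were DESeq2 1.42.0, limma-voom (limma 3.58.1), other scalings and filters, a non-robust fit, left-out libraries and the replicate number as a term. Exon lengths and transcripts came from GENCODE M21.

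Members and lists were chosen with earlier results of these data known. Values in every library are given for genes with an unadjusted p under 0.05, Irf7, Irf9, Stat2 and the pairs Ifit3/Ifit3b and Oas1a/Oas1g. Of the other lists, called genes, Ifnar1 and Ifnar2 were named, and Ifngr1 was named after its values were seen. Some genes are not reported here, and the lists are counted without them. Where the labels do not say how replicates were kept apart, p-values measure the spread between these libraries only.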

Additional observations from a re-analysis of the deposited data

Results flagged for a closer look

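Of 24 genes examined in the 5 standard-diet libraries, 2 had 1 library far from the others by Dixon's criterion, which chance alone meets in about 1 in 20 groups. Oas1g was at 27.8 CPM in standard-diet replicate 2, where the other 4 libraries lay between 35.6 and 38.7 CPM. Oasl2 was at 16.3 CPM in standard-diet replicate 4, where the other 4 lay between 5.84 and 8.71 CPM.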

How the results depend on the processing

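Of 18 alternatives, Ifit1 kept its call in 17. The exception was the fit with a replicate block (log2 fold change -1.95, adjusted p = 0.268), which called 0 of the interferon-stimulated genes, gave their median as -0.38 and called no gene of any kind. Same-numbered libraries did not deviate together (correlations -0.081, -0.052 and -0.298 for numbers 1 to 3), so they were not taken as pairs. The count called lower was 5 with no filter on low counts (Ifit1, Isg15, Herc6, Dtx3l and Xaf1, against 0.858% of all genes), 7 in DESeq2, 2 in limma-voom, and 1 to 2 with 1 library left out, the second being Zbp1 without BCAA-free replicate 1 and Isg15 when replicate 3 was left out. In those 8 fits 0.213% to 0.552% of all genes were called lower. None was called higher under any alternative. The median log2 fold change was -0.37 in limma-voom, -0.21 without standard-diet replicate 1 and BCAA-free replicate 3 together, and -0.46 to -0.19 with 1 library left out. It stayed negative under every alternative. Genes with groups that do not overlap numbered 10 to 16 with 1 library left out, an alternative added after seeing the data, and 16 was reached without BCAA-free replicate 2 (against 7.90% of all genes). Over these fits 5.67% to 9.33% of all genes had such groups, where all libraries together gave 4.68%. With no scaling factors, also added after seeing the data, 8 did, against 3.35% of all genes. The other pathway lists held 7, 7, 15, 44 and 13 tested genes. Among them 3 genes were called lower and 0 higher, against 0.539% and 0.217% of all genes. DESeq2 called 6 and 2, against 2.06% and 0.990% of all genes. The fits without 1 library called 0 to 3 lower, with 0 without standard-diet replicate 2, 4 or 5, and 0 to 1 higher. Those fits called 0.213% to 0.552% of all genes lower and 0.022% to 0.566% higher. Depth limits genes such as Isg15, Ifit3, Ifit3b and Mx2, each below 4 CPM in every library.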

Other observations

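Some interferon-induced genes outside the 40 leaned the other way, and they are named here after their values were seen. In the list of 44 other interferon-induced genes, 5 had an unadjusted p under 0.05 and higher values on the BCAA-free diet, and none of these passed in edgeR, while 7 were lower at that threshold. Over all genes tested 6.21% were higher and 7.26% lower. Shisa5, a p53-inducible protein of the endoplasmic reticulum, was at 67.5, 81.0 and 49.8 CPM on the BCAA-free diet and between 44.6 and 50.1 CPM on the standard diet (log2 fold change 0.50, SE 0.14, edgeR adjusted p = 0.107). Apobec3, a cytidine deaminase that restricts retroviruses, was at 35.1, 48.2 and 26.2 CPM against 17.3 to 28.8 CPM (log2 fold change 0.58, adjusted p = 0.192 in edgeR). Ifi207, Ifitm1 and Ms4a4c had log2 fold changes of 1.08, 1.38 and 1.17. The PYHIN genes Ifi207, Ifi209 and Ifi211 all had positive values, 1.08, 0.55 and 1.31, as did Ifi203 and Ifi204 in the same family. Among these PYHIN genes the highest BCAA-free library was replicate 2 for Ifi203, Ifi207, Ifi209 and Ifi211 and replicate 1 for Ifi204.

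The interferon-inducing factor Irf5, named after its values were seen, was at 11.1, 16.0 and 13.1 CPM on the BCAA-free diet and between 2.70 and 11.3 CPM on the standard diet (log2 fold change 1.25, SE 0.36, edgeR adjusted p = 0.143).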
